A study of Mus musculus with 12 samples.

Results

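Mitosis and spindle genes were followed across 4 sorted populations of mouse CD4 T cells. A list of 56 symbols was used, chosen for the known roles of the genes in cell division, from entry into mitosis to the separation of the daughter cells. Earlier results of these data were known when it was chosen, so its counts against all genes are descriptions. All probe sets that the platform annotation gives to a listed symbol as their single gene were taken. Of the listed symbols 55 were measured, on 123 probe sets, among 18193 genes tested in all, and Ccnb1 was dropped by that rule. One probe set stood for each gene, and 37 of the 55 genes had several.

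A cell enters mitosis when cyclin-bound Cdk1 becomes active, condenses its chromosomes, builds a bipolar spindle of microtubules and attaches each chromosome to it through the kinetochore. A checkpoint holds the cell until all chromosomes are attached, after which the anaphase-promoting complex tags cyclin B and securin for destruction, the sister chromatids separate and the cell divides by cytokinesis. Most of these genes are transcribed late in the cell cycle and are low in resting cells, so that in T cells they serve as markers of proliferation.

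The mice were female MRL/Faslpr, a lupus-prone strain with a defective allele of the death receptor gene Fas, and RNA of CD4 T cells from the spleen was hybridised to 12 Affymetrix mouse genome arrays. All cells were sorted as TCRb+ CD4+ B220-. The CD44+ cells, from mice aged 16 to 24 weeks, were split into CD62Lhi PSGL1hi, CD62Llo PSGL1hi and CD62Llo PSGL1lo populations, the last called PSGL1lo cells in what follows. Naive cells were CD62Lhi CD44lo and came from mice aged 6 to 8 weeks, so that population and age cannot be told apart in any comparison with them. Each population had 3 arrays, which the titles call technical replicates and the design text describes as independent sorts. The p-values therefore measure only the spread between these arrays, which may be technical. For the CD62Llo PSGL1hi samples 1 label gives a different gate. Their titles and the design text were used instead. All mice carried the same Fas allele, and no other strain was compared here.

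Each deposited value is a ratio to the median of its probe set over the 12 arrays, so that 1 is the middle of the 12 arrays and nothing can be read about how strongly one gene is expressed against another. Whether a marker was present in the cells cannot be read from such ratios either. Differences are given on the log2 scale with the standard error of limma's fit over all 12 arrays. Calls were made where p, adjusted by Benjamini and Hochberg's method across 18193 genes, was under 0.05. The shares of all genes called belong to this fit and are no match for counts under other settings. In bulk RNA of this kind, fewer dividing cells and less RNA per dividing cell cannot be told apart.

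The gates on PSGL1 and CD44 could be checked on their own genes. The gene of CD62L, on which the first comparison rests, was not analysed here, and none of the 3 gate genes measured (Selplg, Cd44 and Ptprc) was called between the PSGL1hi populations, with log2 differences of -0.07, 0.35 and 0.03. Selplg, which encodes PSGL1, was lower in PSGL1lo than in CD62Llo PSGL1hi cells, with a log2 difference of -2.91 ± 0.12. Cd44 was higher in CD62Lhi PSGL1hi than in naive cells by 3.45 ± 0.12. Over all probe sets, array medians ran from 0.967 to 1.022. The PSGL1lo array of replicate 2 had the lowest weight of the 12 in limma's array weights, at 0.366.

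The mitosis genes were highest in CD62Lhi PSGL1hi cells and lowest in PSGL1lo cells. The median ratio of the 55 genes was 1.57, 2.08 and 2.86 in the CD62Lhi PSGL1hi arrays of replicates 1, 2 and 3. It was 0.882, 0.862 and 0.997 in the CD62Llo PSGL1hi arrays, 0.706, 0.634 and 0.853 in the PSGL1lo arrays and 1.05, 1.02 and 1.00 in the naive arrays. All 3 CD62Lhi PSGL1hi arrays thus lay above the other 9. For single genes, 46 of the 55 had their 3 CD62Lhi PSGL1hi arrays above the 9 other arrays, against 2.24% of all genes. The 3 PSGL1lo arrays lay below the 9 others for 13 of the 55, against 4.56% of all genes. Over the 4 populations, limma's F test called 48 of the 55 genes, against 28.2% of all genes. Those not called were Top2a, Kif15, Kif23, Cdca3, Smc4, Foxm1 and Mybl2.

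**Figure D1:**
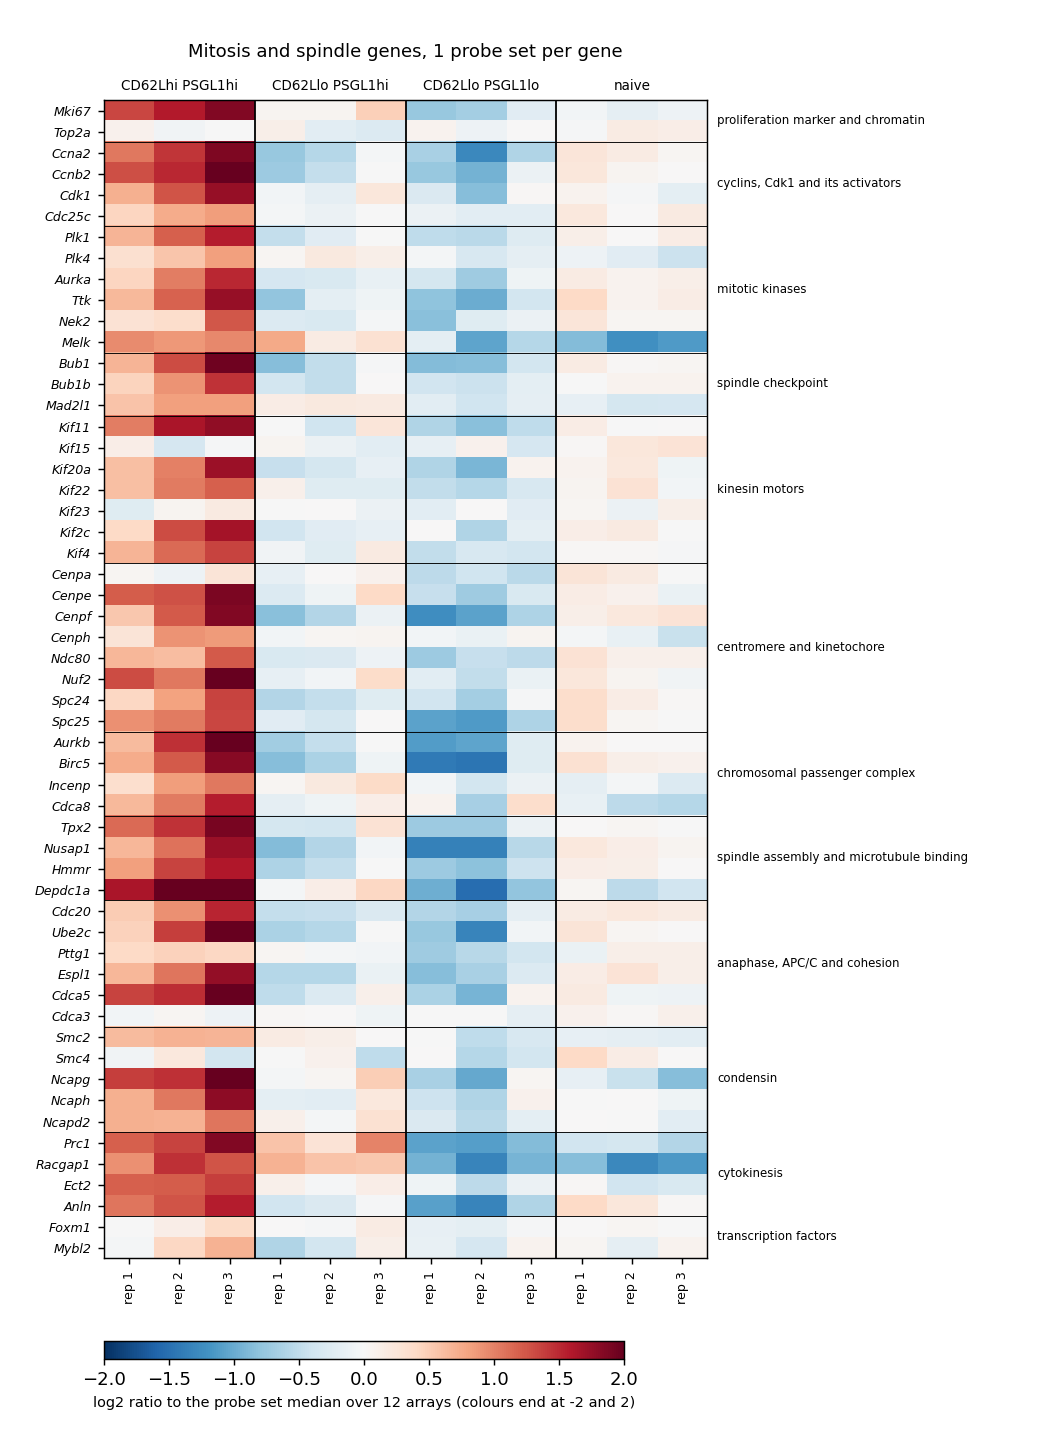
Each cell is the log2 ratio of 1 gene (its probe set) in 1 array, with genes in rows grouped by role and the 12 arrays in columns grouped by population; red is above and blue below the probe set's median. The CD62Lhi PSGL1hi columns are red for nearly all genes, while the rows of Top2a, Kif15, Kif23 and Cdca3 are pale throughout.

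The commonest order of the population means was CD62Lhi PSGL1hi, naive, CD62Llo PSGL1hi and PSGL1lo from high to low, found for 31 of the 55 genes (56.4%) against 3.89% of all genes. CD62Lhi PSGL1hi cells had the highest mean for 49 of the 55 and PSGL1lo cells the lowest for 46, where over all genes these shares were 19.4% and 28.8%. Of the neighbours at the lower end of that order, naive and CD62Llo PSGL1hi cells differed beyond the threshold for 6 of the 55 genes, against 20.7% of all genes, and CD62Llo PSGL1hi and PSGL1lo cells for 12, against 10.8%. The first of these counts rose to between 11 and 29 under several other settings, for which the share of all genes is not given.

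A short sequence called the cell cycle genes homology region, or CHR, binds the MuvB complex, which represses late cell cycle genes in resting cells and, joined by Mybl2 or Foxm1, activates them in dividing cells. Promoters of 300 bases, from 250 before to 50 after the start of transcription, were matched in RefSeq's GRCm38.p6 table for 46 of the 55 genes, 48 promoters in all. The CHR letters TTTGAA, searched on both strands, were in 72.9% of these promoters against 13.2% of the promoters of the other genes tested. CCAAT, the letters of the box bound by NF-Y, was in 70.8% against 37.3%. Both together were in 62.5% against 5.08%. Letters of an E2F site, either TTCCCGC on either strand or, in a second form, TTGGCGC, were in 22.9% against 9.83%. Among 32 promoters of 27 DNA replication and S phase genes, 3 (9.38%) held TTTGAA and 16 held the E2F letters. Of the 46 matches to TTTGAA, 34 began within 50 bases of the start. The reverse complement of the CCAAT letters can overlap the second E2F run, and a match is a run of letters, not a measured binding site.

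The last 100 bases before the start are shown for 7 genes, 5′ to 3′ on the strand of the gene, with the CHR and CCAAT letters of either strand in capitals. Cdk1, Cdc20, Kif11, Depdc1a and Prc1 are genes with large differences between the populations, Top2a is one whose probe sets disagreed, and Melk has neither run of letters in this window.
Cdk1, chr10:69352913-69353012, minus strand: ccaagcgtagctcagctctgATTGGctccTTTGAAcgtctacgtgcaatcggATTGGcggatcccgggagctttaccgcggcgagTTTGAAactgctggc
Cdc20, chr4:118437344-118437443, minus strand: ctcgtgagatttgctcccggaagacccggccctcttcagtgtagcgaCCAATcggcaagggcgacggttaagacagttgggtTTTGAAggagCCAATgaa
Kif11, chr19:37376282-37376381, plus strand: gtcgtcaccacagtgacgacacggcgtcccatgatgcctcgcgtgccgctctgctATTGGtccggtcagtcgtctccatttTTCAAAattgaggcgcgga
Depdc1a, chr3:159495333-159495432, plus strand: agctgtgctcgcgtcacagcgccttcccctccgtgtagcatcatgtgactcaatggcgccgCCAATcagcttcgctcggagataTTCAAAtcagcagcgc
Prc1, chr7:80294376-80294475, plus strand: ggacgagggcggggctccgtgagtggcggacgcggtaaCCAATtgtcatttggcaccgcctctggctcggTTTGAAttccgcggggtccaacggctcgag
Top2a, chr11:99024190-99024289, minus strand: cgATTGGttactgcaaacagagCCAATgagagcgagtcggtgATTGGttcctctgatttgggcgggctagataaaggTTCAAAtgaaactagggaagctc
Melk, chr4:44300817-44300916, plus strand: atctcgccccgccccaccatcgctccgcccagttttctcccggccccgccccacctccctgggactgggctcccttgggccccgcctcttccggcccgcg

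Genes with TTTGAA in their promoter and genes without it both differed between the populations. The median difference of CD62Llo PSGL1hi from CD62Lhi PSGL1hi cells was -1.25 over the 33 genes with it and -0.83 over the 13 without it. Against naive cells, CD62Lhi PSGL1hi cells were higher by a median of 1.02 with it and 1.03 without it. No test was made of these medians.

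Low against high CD62L, at high PSGL1, separated most of the genes. In CD62Llo PSGL1hi cells 43 of the 55 were lower than in CD62Lhi PSGL1hi cells and 0 were higher (0 also at an unadjusted p under 0.05), against 1.42% and 0.742% of all genes. The 2 populations did not overlap, with CD62Llo PSGL1hi cells lower, for 46 of the 55 against 8.5% of all genes. The median difference of the 55 genes was -1.25, a 2.37-fold lower ratio, where the median of all genes was -0.01. It was -0.99 without the CD62Lhi PSGL1hi array of replicate 3, in which the genes were highest. With 1 of the 12 arrays left out in turn, 35 of the 43 calls were kept in every fit. Those lost in some were Cenph, Cdca8, Ube2c, Pttg1, Smc2, Ncapd2, Prc1 and Racgap1, and those of Pttg1 and Racgap1 were lost in 8 of 12. With the replicate number as a block within the 9 CD44+ arrays, 45 genes were called, Nek2 and Mybl2 in addition.

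Low against high PSGL1, at low CD62L, gave fewer calls. In PSGL1lo cells 12 of the 55 were lower than in CD62Llo PSGL1hi cells and 0 were higher (0 also at an unadjusted p under 0.05), against 6.16% and 4.64% of all genes. The 2 populations did not overlap, with PSGL1lo cells lower, for 21 of the 55 against 11.9% of all genes. The median difference was -0.33, a 1.26-fold lower ratio, against 0.01 for all genes. It was -0.09 with quantile normalization and -0.21 with array weights. Quantile normalization ended the calls of Anln, Cenpa, Kif11 and Spc25 and called Smc2. The 12 genes were Mki67, Melk, Mad2l1, Kif11, Cenpa, Spc25, Depdc1a, Pttg1, Ncapd2, Prc1, Racgap1 and Anln. With 1 array left out in turn 9 of the 12 calls were kept in every fit, while that of Kif11 was lost in 9 of 12 fits, and those of Cenpa and Ncapd2 in 3. With the replicate block within the 9 CD44+ arrays, 18 genes were called, adding Birc5, Cenpe, Cenpf, Ncapg, Nusap1 and Tpx2.

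Between the ends of this series, PSGL1lo against CD62Lhi PSGL1hi cells, 48 of the 55 were lower and 0 higher (0 also at an unadjusted p under 0.05), against 8.16% and 6.76% of all genes. The median difference was -1.50, a 2.83-fold lower ratio. All 48 calls were kept whichever single array was left out, and the replicate block added that of Mybl2. Of the difference between the ends, a median of 79.1% lay between the PSGL1hi populations in the 48 genes. The share was over 75% for 30 of them and under 50% for 5, which were Cenpa, Racgap1, Melk, Prc1 and Pttg1, at 16.3%, 26.8%, 33.5%, 34.6% and 45.8%. Each share is that of the probe set used, and shares on others or under other settings were not computed. The CD62Lhi PSGL1hi arrays enter both differences of a share. With quantile normalization the median of the 55 genes was -1.52 between the PSGL1hi populations and -1.63 between the ends. With the mean of all probe sets these medians were -0.93 and -1.27. On 1450842_a_at of Cenpa the CD62Lhi PSGL1hi arrays were at 1.38, 1.54 and 1.87. Its CD62Llo PSGL1hi arrays were at 1.06, 0.991 and 1.01, and its PSGL1lo arrays at 0.73, 0.639 and 0.832. On 1424105_a_at of Pttg1 the same arrays were at 1.55, 2.19 and 2.62, at 1.16, 1.05 and 1.35, and at 0.693, 0.608 and 0.833. On 1441864_x_at of Cenpa these populations overlapped. The largest share was 106.0%, in Spc24, whose ratio was no lower in PSGL1lo than in CD62Llo PSGL1hi cells.

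Compared with naive cells, 46 of the 55 were higher in CD62Lhi PSGL1hi cells and 0 were lower (0 also at an unadjusted p under 0.05), against 10.6% and 10.1% of all genes. The populations did not overlap, with CD62Lhi PSGL1hi cells higher, for 47 of the 55 against 15.8% of all genes. The median difference was 1.02, a 2.03-fold higher ratio. CD62Llo PSGL1hi cells differed from naive cells beyond the threshold for 10.9% of the 55, a smaller share than the 20.7% of all genes. The median difference was -0.22 against -0.06 for all genes. Melk, Mad2l1, Prc1 and Racgap1 were higher than in naive cells and Spc24 and Cdc20 were lower, against 10.8% and 9.94% of all genes called higher and lower. At an unadjusted p under 0.05 there were 12 lower and 10 higher. The populations did not overlap, with CD62Llo PSGL1hi cells lower, for 21 of the 55 and, with them higher, for 9, against 23.8% and 16.8% of all genes. With only these populations fitted, 29 were called, and the share of all genes in that fit is not given. The count of 6 was 12 without the CD62Lhi PSGL1hi array of replicate 1 and also without that of replicate 3. It was 10 without the PSGL1lo array of replicate 2 and also without the CD62Llo PSGL1hi array of replicate 3. The calls of Spc24 and Cdc20 were each lost in 6 of 12 such fits, and those of the 4 higher genes in none. PSGL1lo cells were lower than naive cells for 21 of the 55 and higher for 0 (1 at an unadjusted p under 0.05), against 12.1% and 11.1% of all genes. The populations did not overlap, with PSGL1lo cells lower, for 35 of the 55 against 22.0% of all genes, and the median difference was -0.50. With 1 array left out in turn 13 of the 21 calls were kept in every fit, and those of Ccnb2, Cdc25c, Plk1, Bub1, Kif22, Cdc20, Espl1 and Prc1 were lost in some. The count ran from 14 to 31 in these fits and was 6 with quantile normalization. All comparisons with 1 population share its arrays and are not independent of each other.

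**Figure D2:**
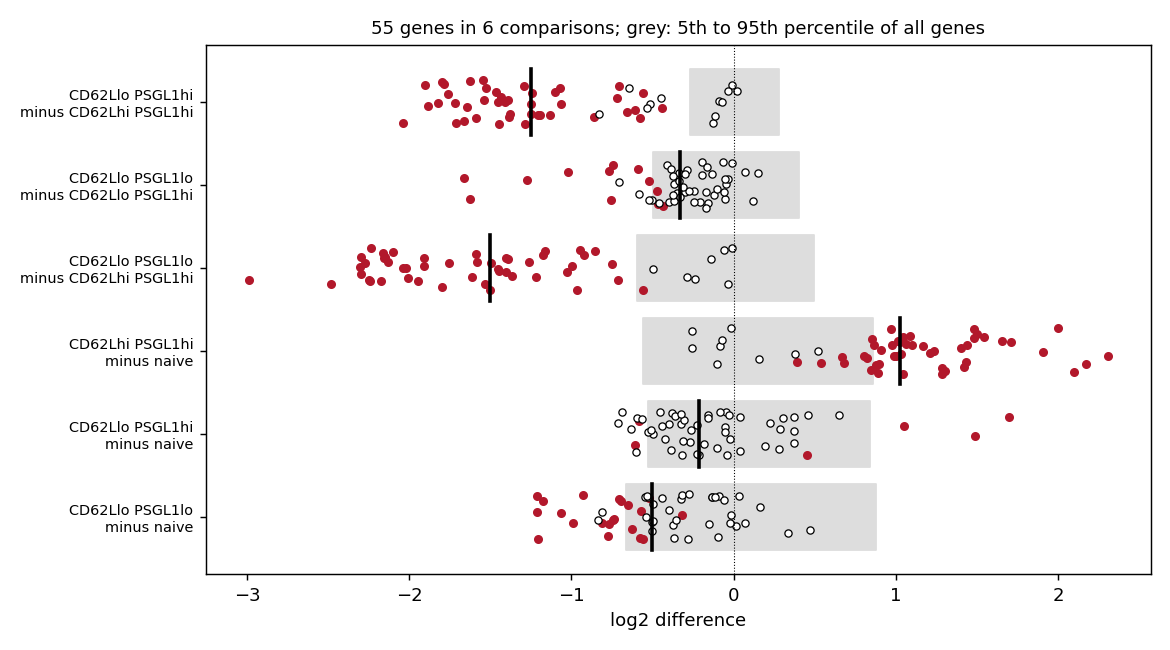
Each point is the log2 difference of 1 of the 55 genes in 1 of the 6 comparisons, filled red where the adjusted p was under 0.05 and open otherwise, with the median as a black bar; grey spans the 5th to 95th percentile of all 18193 genes. In the comparison of the PSGL1hi populations the median is -1.25 and all called points lie left of the grey band.

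Markers of other cell types also differed between the PSGL1hi populations. Of 49 markers in 6 lists (B, plasma, myeloid, dendritic, NK or CD8, and erythroid cells), 3 were called lower and 1 higher with low CD62L, where 1.42% and 0.742% of all genes were. They were Sdc1, Bank1 and Cd68, with log2 differences of -1.26, -0.70 and -0.69, and Klrd1, with 1.64. Of 8 CD4 T cell identity genes, all 8 had a difference above 0 and 2 were called higher, Cd4 by 0.59 ± 0.10 and Cd247 by 0.49 ± 0.11. The mean log2 ratio of the plasma cell list ran from 0.26 to 0.56 in the CD62Lhi PSGL1hi arrays and from 0.20 to 0.37 in the CD62Llo PSGL1hi arrays, that of the B cell list from -0.06 to 0.17 and from -0.09 to 0.02, and that of the erythroid list from -0.04 to 0.10 and from -0.04 to 0.01. The corresponding ranges were -0.09 to 0.18 and -0.16 to 0.24 for myeloid, 0.04 to 0.12 and -0.15 to 0.18 for dendritic, and 0.12 to 0.33 and 0.24 to 0.53 for NK and CD8 markers. Between PSGL1lo and CD62Llo PSGL1hi cells 7 of the 49 were lower and 0 were higher in limma's test, where 6.16% and 4.64% of all genes were, and the NK and CD8 list ran from -1.06 to -0.93 in PSGL1lo arrays. Of the 8 CD4 T cell identity genes, 7 had a difference below 0 there, 1 was called lower and 0 higher. Their differences ran from -2.01 to 0.01. Against naive cells 12 of the 49 were higher and 9 lower in CD62Lhi PSGL1hi cells, where 10.6% and 10.1% of all genes were, with 6 of 8 plasma cell markers among the higher, and the plasma cell list ran from -1.14 to -1.09 in naive arrays. Their part in the results was not tested.

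In what follows, a change with CD62L is that from CD62Lhi to CD62Llo cells at high PSGL1, and a change with PSGL1 is that from PSGL1hi to PSGL1lo at low CD62L.

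Mki67, the gene of the proliferation antigen Ki-67 that coats mitotic chromosomes, had separate levels in all 4 populations. Its ratio was 2.53, 3.02 and 3.62 in the CD62Lhi PSGL1hi arrays, 1.03, 1.03 and 1.38 in CD62Llo PSGL1hi, 0.591, 0.625 and 0.853 in PSGL1lo and 0.966, 0.88 and 0.927 in naive arrays. No 2 populations overlapped. It was lower in CD62Llo PSGL1hi cells than in their CD62Lhi counterparts, with a log2 difference of -1.41 ± 0.16 (adjusted p = 0.000113) and lower again in PSGL1lo cells, with a log2 difference of -0.74 ± 0.16 (adjusted p = 0.00461). CD62Lhi PSGL1hi cells stood 3.27-fold above naive cells. The differences from naive cells of the other populations, 0.30 ± 0.16 and -0.44 ± 0.16, did not pass the threshold.

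The A and B cyclins showed the largest differences with CD62L of the 55 genes. Ccna2 encodes cyclin A2, which partners Cdk2 and Cdk1 from S phase into mitosis. Its ratio was 2.07, 2.69 and 3.65 in CD62Lhi PSGL1hi, 0.594, 0.676 and 0.973 in CD62Llo PSGL1hi, 0.638, 0.41 and 0.656 in PSGL1lo and 1.18, 1.11 and 1.03 in naive arrays. The CD62Llo populations overlapped each other, and both lay wholly below the naive arrays. The difference between the PSGL1hi populations was -1.90 ± 0.22 (adjusted p = 0.000117), a 3.74-fold drop, and PSGL1lo cells were lower than naive cells, with a log2 difference of -0.99 ± 0.22 (adjusted p = 0.00252). Ccnb2, a B-type cyclin of Cdk1, had the largest difference of the 55 genes between the PSGL1hi populations, -2.04 ± 0.23. Its ratio was 2.45, 2.83 and 4.36 in the CD62Lhi PSGL1hi arrays and 0.606, 0.721 and 0.991 in the CD62Llo PSGL1hi arrays.

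Cdk1 itself, the kinase that drives entry into mitosis, was at 1.64, 2.40 and 3.34 in CD62Lhi PSGL1hi, 0.959, 0.88 and 1.17 in CD62Llo PSGL1hi, 0.821, 0.552 and 1.01 in PSGL1lo and 1.05, 0.985 and 0.877 in naive arrays. The CD62Lhi PSGL1hi arrays were apart, and the other 3 populations overlapped. Its difference was -1.25 ± 0.23 between the PSGL1hi populations (adjusted p = 0.00631), and the difference of CD62Llo PSGL1hi from naive cells was 0.04 ± 0.23 (adjusted p = 0.928). Cdc25c, a phosphatase that activates Cdk1, changed by -0.72 ± 0.11. All 4 measured genes of this group fell with CD62L, and all 4 were higher in CD62Lhi PSGL1hi than in naive cells.

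Of the 6 mitotic kinases, 3 were called between the PSGL1hi populations on the probe sets used. All 3 were lower with low CD62L, Plk1, the polo-like kinase needed at several steps of mitosis, by a log2 difference of -1.39 ± 0.18, Aurka, the Aurora kinase of the spindle poles, of -1.25 ± 0.20, and Ttk, the Mps1 kinase of the checkpoint, of -1.54 ± 0.24. Plk4, which starts centriole duplication, differed by -0.45 ± 0.13 (adjusted p = 0.102). Nek2, a kinase that separates the centrosomes, was at 1.22, 1.27 and 2.37 in CD62Lhi PSGL1hi, 0.827, 0.811 and 0.978 in CD62Llo PSGL1hi, 0.559, 0.848 and 0.921 in PSGL1lo and 1.18, 1.02 and 1.03 in naive arrays. Its CD62Lhi PSGL1hi arrays were uneven, with replicate 3 far above the others. The difference between the PSGL1hi populations was -0.83 ± 0.22 (adjusted p = 0.0691). On 1437580_s_at Nek2 was at 1.44, 2.23 and 3.70 in CD62Lhi PSGL1hi and 0.57, 0.645 and 0.963 in CD62Llo PSGL1hi arrays. On 1437579_at these populations overlapped. With the most variable probe set of each gene, Nek2 and Plk4 were called lower with CD62L.

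Melk, a maternal embryonic leucine zipper kinase, had another order. Its ratio was 1.92, 1.82 and 1.95 in CD62Lhi PSGL1hi, 1.70, 1.12 and 1.23 in CD62Llo PSGL1hi, 0.876, 0.481 and 0.671 in PSGL1lo and 0.548, 0.429 and 0.454 in naive arrays. The PSGL1hi populations stood above both others, and the naive arrays were the lowest on average. The difference between the PSGL1hi populations, -0.51 ± 0.19, was not called (adjusted p = 0.265). PSGL1lo cells were lower than CD62Llo PSGL1hi cells, with a log2 difference of -1.02 ± 0.19 (adjusted p = 0.00139), and CD62Llo PSGL1hi cells were higher than naive cells by 1.49 ± 0.19 (adjusted p = 1.71e-05).

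All 3 genes of the spindle checkpoint fell with CD62L. Bub1, a kinetochore kinase, changed by -1.76 ± 0.25 and Bub1b, which encodes the checkpoint protein BubR1, by -1.21 ± 0.19. Mad2l1 encodes Mad2, the checkpoint protein that binds Cdc20. Its ratio was 1.48, 1.77 and 1.76 in CD62Lhi PSGL1hi, 1.10, 1.15 and 1.13 in CD62Llo PSGL1hi, 0.864, 0.756 and 0.885 in PSGL1lo and 0.896, 0.786 and 0.795 in naive arrays. The values formed 3 steps, with PSGL1lo and naive arrays together on the lowest. Mad2l1 changed with CD62L and with PSGL1, by -0.56 ± 0.10 (adjusted p = 0.00671) and -0.43 ± 0.10 (adjusted p = 0.0111), and PSGL1lo cells differed from naive cells by 0.01 ± 0.10.

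Among the 7 kinesin motors, 5 were lower in CD62Llo PSGL1hi cells than in their CD62Lhi counterparts. Kif11 encodes Eg5, the motor that pushes the spindle poles apart. Its ratio was 2.04, 3.10 and 3.44 in CD62Lhi PSGL1hi, 0.994, 0.756 and 1.18 in CD62Llo PSGL1hi, 0.659, 0.559 and 0.704 in PSGL1lo and 1.10, 0.999 and 1.00 in naive arrays. The CD62Lhi PSGL1hi arrays lay above and the PSGL1lo arrays below all others. The difference with CD62L was -1.54 ± 0.18 (adjusted p = 0.000166), and that with PSGL1 was -0.59 ± 0.18 (adjusted p = 0.0479). Kif20a, which acts at the central spindle, Kif2c, a microtubule depolymerase at the centromere, Kif22, a motor on chromosome arms, and Kif4, which binds condensed chromosomes, changed by between -1.07 and -1.43 with CD62L. Kif2c differed by -0.01 ± 0.23 between the CD62Llo populations.

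Kif23, a motor of the central spindle, was flat on the probe set used, at 0.843, 1.04 and 1.13 in CD62Lhi PSGL1hi, 0.997, 1.00 and 0.926 in CD62Llo PSGL1hi, 0.867, 1.01 and 0.853 in PSGL1lo and 1.03, 0.924 and 1.08 in naive arrays. All 4 populations overlapped. Kif15, a motor that works alongside Kif11, had a difference of -0.01 ± 0.14 between the PSGL1hi populations.

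The 8 centromere and kinetochore genes included 7 that fell with CD62L. Spc25, a subunit of the Ndc80 complex that holds the microtubule, was at 1.88, 2.07 and 2.51 in CD62Lhi PSGL1hi, 0.854, 0.784 and 1.01 in CD62Llo PSGL1hi, 0.476, 0.456 and 0.65 in PSGL1lo and 1.27, 1.03 and 0.99 in naive arrays. The PSGL1lo arrays lay below all others. Spc25 changed by -1.28 ± 0.15 with CD62L (adjusted p = 0.000187) and by -0.75 ± 0.15 with PSGL1 (adjusted p = 0.00339). Its partner Spc24 changed by -1.29 ± 0.20 with CD62L and differed by 0.07 ± 0.20 with PSGL1 (adjusted p = 0.917). The remaining subunits of that complex, Ndc80 and Nuf2, changed by -1.06 ± 0.14 and -1.47 ± 0.22 with CD62L. Cenpe, a kinetochore motor, and Cenpf, a large kinetochore protein, changed by -1.44 ± 0.19 and -1.72 ± 0.26, and Cenph, of the inner kinetochore, by -0.66 ± 0.15.

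Cenpa, the histone H3 variant that marks the centromere, was at 1.03, 0.935 and 1.20 in CD62Lhi PSGL1hi, 0.889, 1.01 and 1.06 in CD62Llo PSGL1hi, 0.693, 0.76 and 0.685 in PSGL1lo and 1.19, 1.13 and 0.99 in naive arrays. The PSGL1lo arrays lay below the rest, which overlapped. It changed by -0.47 ± 0.12 with PSGL1 (adjusted p = 0.0134), and its difference with CD62L was -0.09 ± 0.12 (adjusted p = 0.896).

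The chromosomal passenger complex corrects faulty attachments and later directs cytokinesis. Birc5, which encodes its subunit survivin, was at 1.67, 2.34 and 3.54 in CD62Lhi PSGL1hi, 0.557, 0.644 and 0.942 in CD62Llo PSGL1hi, 0.375, 0.363 and 0.843 in PSGL1lo and 1.23, 1.08 and 1.06 in naive arrays. Replicate 3 was the highest in each of the CD44+ populations, and in PSGL1lo cells it lay within the CD62Llo PSGL1hi range. Birc5 changed by -1.78 ± 0.30 with CD62L (adjusted p = 0.0027) and was lower in PSGL1lo than in naive cells, with a log2 difference of -1.21 ± 0.30 (adjusted p = 0.00652). Aurkb, the kinase of the complex, changed by -1.82 ± 0.30 and Cdca8, which encodes borealin, by -1.13 ± 0.24 with CD62L. Incenp, the scaffold, was at 1.26, 1.78 and 2.08 in CD62Lhi PSGL1hi, 1.02, 1.15 and 1.31 in CD62Llo PSGL1hi, 0.965, 0.776 and 0.92 in PSGL1lo and 0.88, 0.976 and 0.827 in naive arrays. Its PSGL1hi populations overlapped on the probe set used, and the difference of -0.53 ± 0.16 between them was not called (adjusted p = 0.12). With its most variable probe set Incenp was called lower with CD62L and with PSGL1. On 1439436_x_at it was at 1.72, 1.61 and 1.90 in CD62Lhi PSGL1hi and 1.07, 1.17 and 1.09 in CD62Llo PSGL1hi arrays. On 1439252_at and 1441314_at these populations overlapped.

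The 4 genes of spindle assembly and microtubule binding all fell with CD62L, within a narrow range of -1.62 to -1.72. Depdc1a, a gene of mitotic progression, had the largest difference of the 55 between PSGL1lo and CD62Lhi PSGL1hi cells, -2.99 ± 0.19 (adjusted p = 1.35e-08), a 7.94-fold lower ratio. Its ratio was 3.09, 4.15 and 3.96 in CD62Lhi PSGL1hi, 0.974, 1.10 and 1.33 in CD62Llo PSGL1hi, 0.508, 0.346 and 0.576 in PSGL1lo and 1.03, 0.699 and 0.767 in naive arrays. The CD62Llo PSGL1hi and naive arrays overlapped, with PSGL1lo arrays below both. It changed by -1.27 ± 0.19 with PSGL1 (adjusted p = 0.000203). Nusap1, which bundles spindle microtubules, was at 1.59, 2.13 and 3.30 in CD62Lhi PSGL1hi, 0.55, 0.665 and 0.964 in CD62Llo PSGL1hi, 0.391, 0.393 and 0.684 in PSGL1lo and 1.15, 1.10 and 1.04 in naive arrays. Its difference from naive cells was the largest of the 55 genes in PSGL1lo cells, -1.22 ± 0.26 (adjusted p = 0.00193). Tpx2, which activates Aurka on the spindle, and Hmmr, a microtubule-binding protein, changed by -1.64 ± 0.21 and -1.62 ± 0.18 with CD62L.

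For anaphase and cohesion, 5 of 6 genes fell with CD62L. Cdca5 encodes sororin, which protects cohesin between sister chromatids. It was at 2.56, 2.77 and 4.43 in CD62Lhi PSGL1hi, 0.704, 0.828 and 1.08 in CD62Llo PSGL1hi, 0.642, 0.523 and 1.05 in PSGL1lo and 1.14, 0.945 and 0.931 in naive arrays. Only the CD62Lhi PSGL1hi arrays stood apart from all others. The difference was -1.88 ± 0.24 (adjusted p = 0.000302). Ube2c, the ubiquitin-conjugating enzyme of the anaphase-promoting complex, was the least even gene in CD62Lhi PSGL1hi cells, at 1.38, 2.60 and 5.02, and its difference of -1.80 ± 0.36 had the largest standard error of the 55. Cdc20, the activator of that complex, Espl1, which encodes separase, and Pttg1, which encodes its inhibitor securin, changed by -1.39 ± 0.19, -1.59 ± 0.22 and -0.44 ± 0.11. Cdca3, an F-box-like protein, was flat on the probe set used, with 0.967, 1.03 and 0.93 in CD62Lhi PSGL1hi, 1.02, 1.01 and 0.943 in CD62Llo PSGL1hi, 0.991, 0.99 and 0.884 in PSGL1lo and 1.06, 1.01 and 1.07 in naive arrays.

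Condensin folds the chromosomes for mitosis. Ncapg, a subunit of condensin I, was at 2.61, 2.77 and 4.02 in CD62Lhi PSGL1hi, 0.974, 1.03 and 1.41 in CD62Llo PSGL1hi, 0.636, 0.494 and 1.03 in PSGL1lo and 0.897, 0.737 and 0.555 in naive arrays. CD62Lhi PSGL1hi cells were 4.29-fold above naive cells, and PSGL1lo and naive arrays overlapped. It changed by -1.45 ± 0.24 with CD62L (adjusted p = 0.0029). Ncaph and Ncapd2, of the same complex, changed by -1.25 ± 0.22 and -0.71 ± 0.13. Of the core ATPases, Smc2 changed by -0.58 ± 0.12 while Smc4, at 0.949, 1.16 and 0.779 in CD62Lhi PSGL1hi, 0.995, 1.06 and 0.707 in CD62Llo PSGL1hi, 1.00, 0.674 and 0.773 in PSGL1lo and 1.32, 1.10 and 1.01 in naive arrays, overlapped across the CD44+ populations. No difference of Smc4 passed the threshold on that probe set.

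All 4 cytokinesis genes fell with CD62L, and 3 of them, Racgap1, Prc1 and Anln, fell with PSGL1. Racgap1, a GTPase-activating protein of the central spindle, had the smallest p of the F test among the 55. Its ratio was 1.89, 2.75 and 2.38 in CD62Lhi PSGL1hi, 1.62, 1.49 and 1.45 in CD62Llo PSGL1hi, 0.521, 0.399 and 0.527 in PSGL1lo and 0.554, 0.41 and 0.45 in naive arrays. The PSGL1hi populations stood apart from the others, and PSGL1lo and naive arrays overlapped. Racgap1 changed by -1.66 ± 0.15 with PSGL1 (adjusted p = 1.04e-06), a 3.17-fold drop and the largest of the 55 in that comparison, against -0.61 ± 0.15 with CD62L (adjusted p = 0.0472). CD62Llo PSGL1hi cells were above naive cells by 1.70 ± 0.15 (adjusted p = 3.54e-07), and PSGL1lo cells differed from them by 0.03 ± 0.15 (adjusted p = 0.913).

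Prc1, which crosslinks the microtubules of the central spindle, was at 2.30, 2.56 and 3.62 in CD62Lhi PSGL1hi, 1.48, 1.21 and 1.98 in CD62Llo PSGL1hi, 0.474, 0.465 and 0.551 in PSGL1lo and 0.767, 0.786 and 0.665 in naive arrays. No 2 populations overlapped. It changed by -1.62 ± 0.18 with PSGL1 (adjusted p = 7.69e-06) and by -0.86 ± 0.18 with CD62L (adjusted p = 0.0138). Of the remaining cytokinesis genes, Anln had the commonest order of the population means, while Ect2 had naive cells below CD62Llo PSGL1hi cells, as Prc1 did. Ect2, the exchange factor that activates RhoA at the cell equator, was at 2.29, 2.33 and 2.60 in CD62Lhi PSGL1hi, 1.08, 0.982 and 1.10 in CD62Llo PSGL1hi, 0.946, 0.697 and 0.923 in PSGL1lo and 1.02, 0.771 and 0.809 in naive arrays. It changed by -1.19 ± 0.13 with CD62L and differed by -0.31 ± 0.13 with PSGL1 (adjusted p = 0.189). Anln, which encodes the contractile ring protein anillin, changed by -1.53 ± 0.17 and -0.77 ± 0.17.

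**Figure D3:**
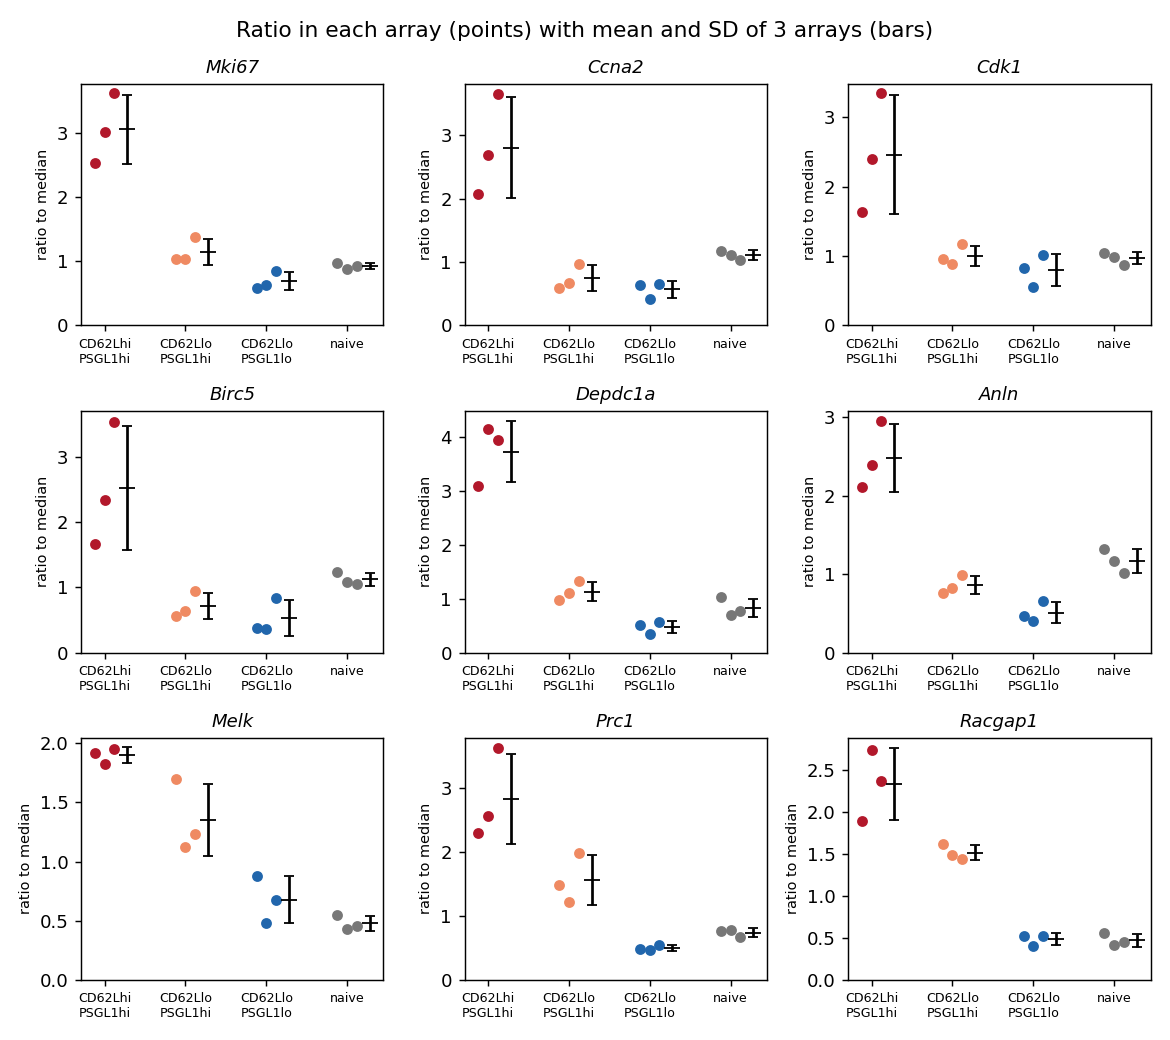
Points are the ratio of a gene in each array, by population, with the mean and SD of the 3 arrays beside them; each panel has its own axis from 0. In Melk, Prc1 and Racgap1 the CD62Llo PSGL1hi arrays lie above the naive arrays, while in Ccna2, Birc5 and Anln they lie below them.

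Neither transcription factor of the list passed the threshold on the probe set used, with all 12 arrays and without a replicate block. Without the CD62Lhi PSGL1hi array of replicate 1, both were called lower in PSGL1lo than in CD62Lhi PSGL1hi cells. Foxm1, the forkhead factor of late cell cycle genes, had a difference of -0.12 ± 0.11 between the PSGL1hi populations (adjusted p = 0.841) and of 0.15 ± 0.11 between CD62Lhi PSGL1hi and naive cells. Mybl2, which encodes B-Myb, was at 0.975, 1.34 and 1.61 in CD62Lhi PSGL1hi, 0.661, 0.774 and 1.08 in CD62Llo PSGL1hi, 0.902, 0.796 and 1.05 in PSGL1lo and 1.02, 0.885 and 1.05 in naive arrays. The PSGL1hi populations overlapped through the CD62Llo PSGL1hi array of replicate 3. The difference of -0.64 ± 0.19 was not called with all 12 arrays and no replicate block (adjusted p = 0.11). It was called without the CD62Lhi PSGL1hi array of replicate 1 and also without the CD62Llo PSGL1hi array of replicate 3. With the block, both over all 12 arrays and within the 9 CD44+ arrays, Mybl2 was called lower in each CD62Llo population than in CD62Lhi PSGL1hi cells. A p that misses the threshold does not show that the levels were the same.

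For several genes the probe sets disagreed. Over all 123 probe sets, 68 were lower in CD62Llo PSGL1hi cells than in their CD62Lhi counterparts, against 0.839% of all probe sets, and they covered 48 genes. In PSGL1lo against CD62Lhi PSGL1hi cells 87 were lower, against 6.27%, in 52 genes. Against naive cells 76 were higher and 1 was lower in CD62Lhi PSGL1hi cells, against 8.6% and 8.66%. In the first comparison 21 of the 37 genes with several probe sets had some called and some not. Of the genes flat on the probe set used, Top2a, Cdca3 and Kif23 each had another that moved. Nek2, Cenpa and Incenp, not called in the first comparison on the probe set used, were called lower there on another. The reverse also occurred in genes called there on the probe set used. The PSGL1hi populations overlapped on 1416310_at of Nusap1, at 1.02, 1.09 and 1.11 against 0.979, 0.923 and 1.06 with low CD62L. They also overlapped on 1441889_x_at of Racgap1, 1453815_at of Spc25, 1432392_at of Kif2c, and 1452334_at and 1458447_at of Cenpf.

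Top2a, which encodes the topoisomerase that untangles chromosomes, was flat on probe set 1427724_at, at 1.07, 0.952 and 0.992 in CD62Lhi PSGL1hi, 1.09, 0.862 and 0.823 in CD62Llo PSGL1hi, 1.05, 0.932 and 1.01 in PSGL1lo and 0.988, 1.11 and 1.10 in naive arrays. On 1454694_a_at it was 1.79, 2.06 and 2.84 in CD62Lhi PSGL1hi, 0.796, 0.785 and 1.10 in CD62Llo PSGL1hi, 0.464, 0.351 and 0.557 in PSGL1lo and 1.06, 1.03 and 0.968 in naive arrays. There the CD62Lhi PSGL1hi arrays lay above and the PSGL1lo arrays below all others, with a difference of -1.31 ± 0.19 with CD62L against -0.13 ± 0.11 on the first. Probe set 1442454_at gave -0.71 ± 0.14. The files do not show which part of the transcript each probe set covers.

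Cdca3 changed by -1.45 ± 0.23 with CD62L on 1452040_a_at and differed by 0.02 ± 0.09 on the probe set used. Kif23 changed by -1.25 ± 0.17 on 1455990_at. On that probe set its naive arrays overlapped its CD62Lhi PSGL1hi arrays, at 2.00, 1.96 and 1.83 against 1.21, 1.67 and 1.92. Cenpa changed by -0.64 ± 0.13 with CD62L on 1450842_a_at. The 3 probe sets of Smc4 differed by between -0.10 and -0.03 with CD62L, and 1427276_at was lower in CD62Lhi PSGL1hi than in naive cells, with a log2 difference of -0.69 ± 0.14, the single lower call above. The 4 probe sets of Foxm1 differed by between -0.20 and 0.01 with CD62L, and 1448834_at was lower in PSGL1lo than in CD62Lhi PSGL1hi cells, with a log2 difference of -0.50 ± 0.12. The other probe set of Mybl2 differed by -0.16 ± 0.12.

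**Figure D4:**
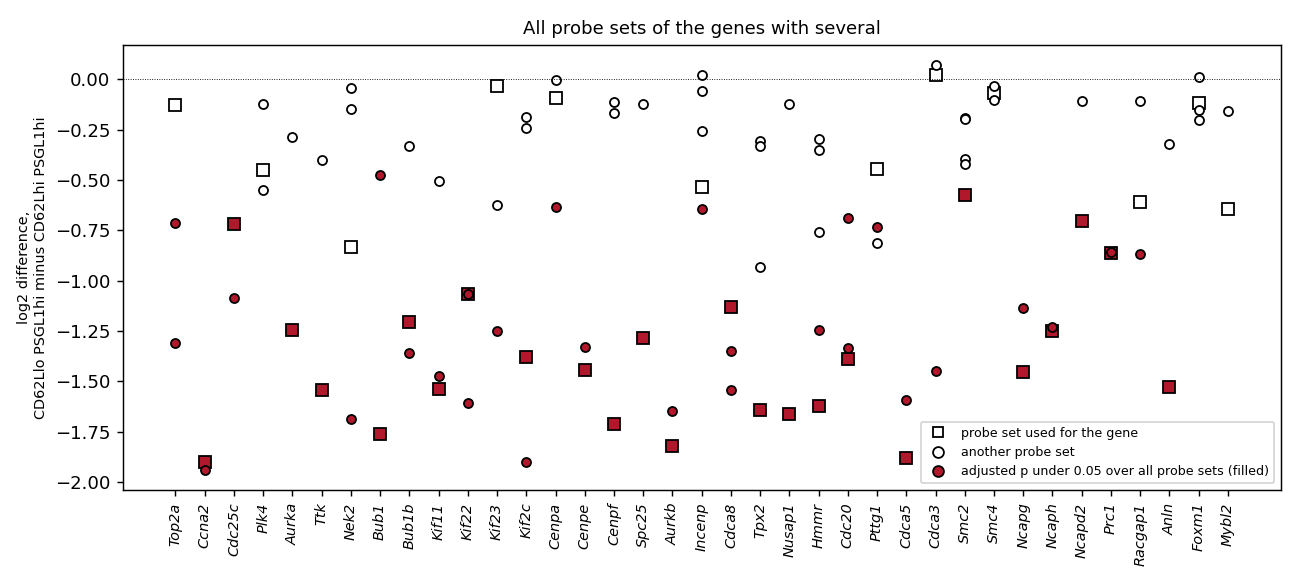
Each symbol is the log2 difference of CD62Llo PSGL1hi from CD62Lhi PSGL1hi cells on 1 probe set of the 37 genes with several; squares are the probe sets used for the genes, circles the others, and filled symbols had an adjusted p under 0.05 over all probe sets. Top2a, Kif23 and Cdca3 have a square near 0 and a filled circle at or below -1.25.

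The genes also varied together between the arrays of 1 population. The median SD of the log2 ratio was 0.37 over the 55 genes and 0.14 over all genes in CD62Lhi PSGL1hi cells, 0.21 and 0.11 in CD62Llo PSGL1hi cells, 0.26 and 0.15 in PSGL1lo cells, and 0.12 and 0.10 in naive cells. The array of replicate 3 was the highest of its population for 45, 43 and 40 of the 55 genes in the CD62Lhi PSGL1hi, CD62Llo PSGL1hi and PSGL1lo cells. The median of all genes in those 3 arrays was between -0.03 and 0.00 on the log2 scale. The CD62Lhi PSGL1hi array of replicate 3 also had the highest mean of the plasma cell list in its population, 0.56 against 0.26 and 0.27 in replicates 1 and 2. The same held for the B cell list (0.17 against 0.05 and -0.06), the NK and CD8 list (0.33 against 0.20 and 0.12), the dendritic list (0.12 against 0.06 and 0.04) and the erythroid list (0.10 against 0.00 and -0.04). It did not hold for the myeloid list (0.16 against 0.18 and -0.09). Its mean of the CD4 T cell identity list was the lowest, -0.14 against -0.07 and 0.03. Their part in the result was not tested. With that array left out, 38 genes fell with CD62L and 43 were above naive cells.

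**Figure D5:**
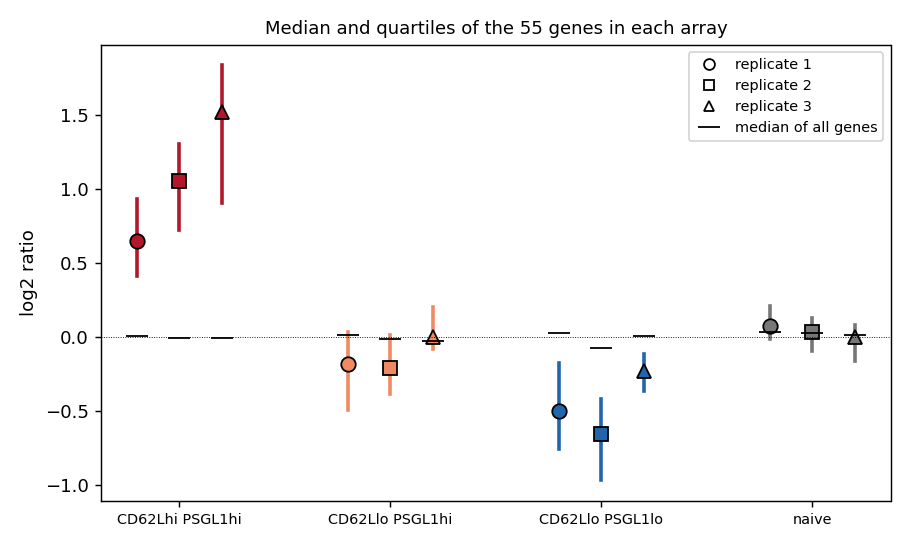
Each symbol is the median log2 ratio of the 55 genes in 1 array, with a line from the 25th to the 75th percentile of the genes; black ticks are the median of all genes in that array. The CD62Lhi PSGL1hi arrays run from 0.65 to 1.52, and replicate 3 is the highest array of each CD44+ population.

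The ratio of a gene was compared over the 12 arrays with the mean log2 ratio of the other 54. Pearson's r had a median of 0.95, was over 0.8 for 46 of the 55 genes and under 0.5 for Cdca3, Kif15, Top2a, Smc4 and Kif23. These values describe 12 arrays that share their populations. Among 18138 genes outside the list, those most like its mean were Rrm2 (0.996), Cep55 (0.994), E2f7 (0.992), Kif18b (0.988), Ckap2 (0.983), Ccnf (0.983), Shcbp1 (0.983) and Aspm (0.981). Rrm2 encodes the small subunit of ribonucleotide reductase and E2f7 an atypical E2F repressor. Cep55, Kif18b, Ckap2, Ccnf and Aspm were on a second list of mitosis genes.

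That second list held 64 measured genes, of which 27 fell and 0 rose with CD62L, against 1.42% and 0.742% of all genes. The median difference of the 64 was -0.50. Cenpp, Pbk and Esco2 had the smallest p, with -1.36 ± 0.15, -1.74 ± 0.21 and -1.76 ± 0.22. Against naive cells 35 were higher and 2, Cdc7 and Cenpt, were lower in CD62Lhi PSGL1hi cells, against 10.6% and 10.1% of all genes. In PSGL1lo against CD62Lhi PSGL1hi cells 41 were lower and Zwint, a kinetochore gene, was higher by 0.46 ± 0.12. Of all genes 8.16% were lower and 6.76% higher there. Of 30 measured DNA replication and S phase genes, with a median of -0.44, 11 fell and 0 rose with CD62L, against 1.42% and 0.742% of all genes. They included Cdc6, which loads the replicative helicase, at -1.75 ± 0.17, Rrm2 at -1.56 ± 0.23 and Uhrf1, which maintains DNA methylation, at -1.16 ± 0.19. The medians of both lists were smaller than that of the 55 genes, and no test was made between the lists.

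Of 21 MuvB, E2F and pocket protein genes, 3 fell with CD62L and 0 rose, against 1.42% and 0.742% of all genes, and all 3 were E2F genes. E2f7 and E2f8, which encode atypical repressors, changed by -1.71 ± 0.20 and -1.42 ± 0.17, and E2f2, an activator, by -1.005 ± 0.14. In PSGL1lo against CD62Llo PSGL1hi cells 3 fell and 2 rose, against 6.16% and 4.64% of all genes. E2f2 and Rbl2, a pocket protein that joins MuvB in resting cells, changed by -1.09 ± 0.14 and -0.99 ± 0.14, while Rb1, the retinoblastoma gene, was higher by 0.63 ± 0.14.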

How the data were processed

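The authors deposited linear ratios. Signals came from MAS5, per the submitters' processing notes; for its version and scaling, nothing was given in the sources used here. Of the ratios, 99.7% of 45101 probe sets had a median within 0.002 of 1 over the 12 arrays, so each was divided by its own median. MAS5 can leave dim signals noisy, and signal over background is unknown from ratios. No value was 0 or below, so log2 was taken without a pseudocount, in place of the offset planned for signals. No further scaling was applied.

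In the platform annotation 34945 probe sets had a single gene symbol and 932 several; 9160 were not listed, and 64 were controls. For each gene a probe set without a cross-hybridisation suffix was preferred, then one with a curated RefSeq target, then the one with the lowest number. Each of the 2 probe sets of Aurkb had such a suffix, and 1424128_x_at was used. Tests were two-sided, with limma 3.58.1 (R 4.3.3; lmFit and eBayes, 8 residual and 7.31 prior degrees of freedom), checked on simulated data. The typical standard error was 0.118, limited by the number of arrays.

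Same-numbered arrays of the CD44+ populations deviated together (every correlation from 0.109 to 0.456), so a replicate block is given there; with naive arrays the range was -0.132 to 0.215. Genes shown in every array were those with the smallest and largest F test p in each role, and genes named had the 4 largest and 4 smallest differences of a comparison, ran against the majority or had the smallest p of another list. Others were named to cover each role after their values were seen. The genes, lists and roles were chosen with earlier results of these data known.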

Additional observations from a re-analysis of the deposited data

How the results depend on the processing

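Alternatives were centring of arrays, quantile normalization, other choices of probe set, only the compared populations, array weights, a replicate block and leaving out each array. The direction of the median of the 55 genes was kept in the main CD62L comparison under each. That median of -1.25 was -1.52 with quantile normalization, -0.93 with the mean of all probe sets, and -1.49 to -0.99 with 1 array left out. The median between PSGL1lo and CD62Lhi PSGL1hi cells, -1.50, was -1.76 with the most variable probe set. The count called between CD62Llo PSGL1hi and naive cells, 6, was 14 with quantile normalization, 11 with the most variable probe set, 12 with the mean of all, 29 with only these populations fitted, 20 with array weights and 4 to 12 with 1 array left out. The count between PSGL1lo and naive cells, 21, was 6 with quantile normalization. The cause was not tested.

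A replicate block over all 12 arrays, where naive arrays share only a number, gave 19 and 34 calls against naive cells for these counts. It changed no called direction.

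Another probe set turned the sign of genes that were not called. Cdca3 differed with CD62L by -1.45 on the most variable probe set and -0.45 on the mean of all, and from naive cells in CD62Lhi PSGL1hi cells by 0.72 on the most variable. Top2a differed with PSGL1 by -0.97 and -0.41 and from naive cells by 1.10 and 0.54, in the same order, and Cenpa from naive cells by 0.63 on the most variable. Over 76 differences of single genes named by rule, 1496 of the other values kept direction and side of the threshold, 38 newly passed it and 3 no longer did. These do not cover all called genes. Quantile normalization ended 2 of 43 calls with CD62L, 4 of 12 with PSGL1, and against naive cells 6 of 46 in CD62Lhi PSGL1hi and 15 of 21 in PSGL1lo cells.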

Other observations

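Genes that hold back the cell cycle formed another list. Of 17 measured, 7 were higher and 3 lower in CD62Lhi PSGL1hi than in naive cells in limma's test, where 10.6% and 10.1% of all genes were. Cdkn2c and Cdkn2b, which encode inhibitors of the cyclin D kinases, were higher by 2.29 ± 0.10 and 2.03 ± 0.15. Between the PSGL1hi populations they differed in opposite directions, Cdkn2c being lower by -0.54 ± 0.10 and Cdkn2b higher by 0.94 ± 0.15 in CD62Llo PSGL1hi cells.

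Wee1 and Pkmyt1, kinases that inhibit Cdk1, differed between the PSGL1hi populations by -0.09 ± 0.09 and -0.04 ± 0.12 and were not called, while Cdk1 itself fell between them. Of the 17 measured genes that hold back the cell cycle, 7 were lower and 1 was higher in PSGL1lo than in CD62Llo PSGL1hi cells. Of all genes 6.16% were lower and 4.64% higher there. In PSGL1lo cells Wee1 was lower than in CD62Llo PSGL1hi cells by -0.69 ± 0.09 and Pkmyt1 by -1.11 ± 0.12. Cdk1 differed there by -0.37 ± 0.23 and was not called. Klf2, a factor of T cell quiescence, was lower there by -1.80 ± 0.15. Tests between these genes were not made.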
